A study of Mus musculus with 6 samples.

Results

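The Id genes and the genes around bone morphogenetic protein (BMP) signalling were followed in the gastric antrum of mice with an activating Kit mutation. The genes are Id1, Id2, Id3 and Id4, the ligand genes Bmp2 and Bmp4, and the inhibitory Smad genes Smad6 and Smad7, and they were chosen by gene symbol in the platform annotation. Of these 8 genes, 7 had a probe, 1 each, among 15123 named genes and 38467 probes. Smad7 was not analysed here. Antral tissue was taken at postnatal day 14 from animals labelled KitK641E:Neo/K641E:Neo and from KitWT/WT littermates, in 3 pairs. The allele is carried in the germline by every cell of the mutant animals, and whole antral tissue holds epithelium, muscle, nerve, vessels and the interstitial cells of Cajal together. In such bulk tissue, fewer cells of a type and less RNA per cell cannot be told apart.

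BMPs are secreted ligands that bind paired type I and type II receptors on the cell surface. The receptors phosphorylate Smad1, Smad5 and Smad9, which enter the nucleus with Smad4 and switch on target genes, of which the Id genes are the best known. Id proteins hold a helix-loop-helix but no DNA-binding region, so they capture E proteins and keep tissue-specific basic helix-loop-helix factors off DNA. Smad6 and Smad7 are themselves targets and block the receptors' signal, closing a negative feedback loop. In the developing gut, BMP4 from the mesenchyme takes part in patterning of the stomach and of its muscle layers.

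Each pair was hybridised on 2 two-colour arrays with the dyes exchanged, which gives 6 arrays and 3 replicates. Values are log2 ratios, likely of mutant over wild type, with base 2 assumed, so a value below 0 means less transcript in the mutant antrum. The direction rests on taking red over green. With that order, Spry4 and Tpbg, which the study's paper reports as up-regulated, had 1.38 and 1.96, and with the opposite order every sign below would turn. Kit had -0.02, 1.89 and 0.81 in pairs 1, 2 and 3; since the mutation changes a codon, its level does not check the genotype labels. The pairs also differed in other tissues' transcripts. The median of 11 liver genes was 0.06, 2.89 and 2.37, and that of 5 pancreatic enzyme genes -2.50, -0.08 and 0.02. The Y-linked gene Eif2s3y had -0.03, -0.05 and -5.06.

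All 7 measured genes had a mean below 0, whereas 47.9% of all 30649 features did. The median over the 7 genes was -0.35, against 0.00 over all features. The list was chosen with results of these arrays known, so these comparisons describe it and test nothing. Id3 and Smad6 had nearly the same value in every pair, Id2 was below 0 on each array with a larger spread, and Id1 and Bmp4 depended on the pair. None of the 7 passed limma's test at an adjusted p of 0.05 over all features. In that test 0% of features were lower and 0.00653% higher. The interval given for each gene below is limma's 95% interval over 3 pairs, not adjusted for the number of features. An exact sign-flip test on 3 pairs cannot go below a p of 0.25.

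**Figure D1:**
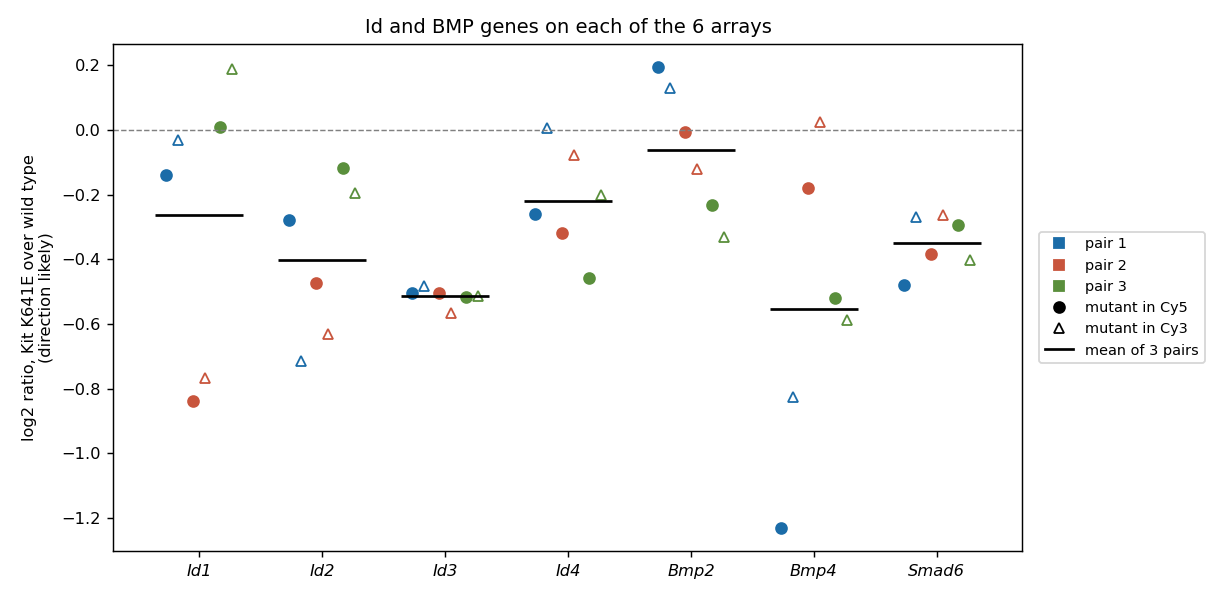
The log2 ratio of Kit K641E over wild type (vertical axis) is shown for 7 genes on each of the 6 arrays, coloured by littermate pair, with circles for the mutant in Cy5, triangles for the mutant in Cy3 and a bar for the mean of 3 pairs. Id3 lies between -0.57 and -0.48 on all arrays, whereas Id1 runs from -0.84 to 0.19 and Bmp4 from -1.23 to 0.03.

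Id3, an inhibitor of E proteins in vascular, stromal and lymphoid cells, was the most even of the 7. With the mutant in Cy5 it had -0.50, -0.51 and -0.52 in pairs 1, 2 and 3, and with the mutant in Cy3 it had -0.48, -0.57 and -0.51. No array stood apart, and the dye orientations differed by 0.01 on average. The mean log2 ratio was -0.51 ± 0.04 (SE, n = 3 pairs; interval -0.62 to -0.41), which is 30.0% less transcript in the mutant antrum. The SD over pairs was 0.02, and 4.96% of features had a smaller one. By p-value Id3 ranked 7 among the 30649 features, but its adjusted p in limma was 0.800. With the 6 arrays fitted together, the pair as a random block (consensus correlation 0.50) and a term for dye, the adjusted p was 0.0294. That fit counts arrays rather than pairs toward its degrees of freedom and uses 1 correlation for all features.

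Id2, which in the gut is known for its part in lymphoid and epithelial development, was below 0 on all 6 arrays but less evenly. With the mutant in Cy5 it had -0.28, -0.47 and -0.12 in pairs 1, 2 and 3, and with the mutant in Cy3 -0.72, -0.63 and -0.20. Pairs 1 and 2 were close to Id3, and pair 3 was nearer 0. The mean was -0.40 ± 0.10 (SE, n = 3; interval -0.68 to -0.13), 24.3% less transcript in the mutant, with a limma adjusted p of 0.923. The 2 arrays of pair 1 lay 0.44 apart, farther than any of the pair means (-0.50, -0.55 and -0.16) from one another.

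Id4, the member of the family known best from the nervous system, was lower on 5 of 6 arrays. It had -0.26, -0.32 and -0.46 in pairs 1, 2 and 3 with the mutant in Cy5, and 0.01, -0.08 and -0.20 with the mutant in Cy3. The value therefore moved with the dye in each pair, by 0.24 to 0.27. The mean was -0.22 ± 0.06 (SE, n = 3; interval -0.38 to -0.06), and limma's adjusted p was 0.923. In all 3 pairs Id3 lay below Id4, by 0.37, 0.34 and 0.18 on the log2 scale.

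Id1, the most widely used readout of BMP signalling, did not follow Id3. It had -0.14, -0.84 and 0.01 in pairs 1, 2 and 3 with the mutant in Cy5, and -0.03, -0.77 and 0.19 with the mutant in Cy3. Pair 2 lay far below 0 and pairs 1 and 3 near it, and the 2 arrays of every pair were close, within 0.07 to 0.18. The mean was -0.26 ± 0.20 (SE, n = 3; interval -0.84 to 0.31; adjusted p 0.923), and without pair 2 it was 0.01. Pair 2 was also the pair with the highest medians for the 9 interstitial cell markers (1.89, the value of Kit, which is one of them) and the liver genes (2.89). The smooth muscle (0.29), fibroblast (0.06) and endothelial (0.00) medians were highest in pair 2 too. The 7 measured antral epithelium markers had medians of 0.23, -0.34 and -0.01 in pairs 1, 2 and 3, lowest in pair 2 as for Id1. Medians of the leukocyte, enteric neuron, pancreatic and red blood cell lists were neither highest nor lowest there. The part of any of these tissues in the Id1 value was not tested.

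The promoters of Id2 and Id3, the Id genes below 0 on all 6 arrays, are shown because these genes are known Smad targets. They were read from RefSeq (build GRCm38.p6), which gave a window from 250 bases before to 50 bases after the start for 5 of the 8 genes: Id2, Id3, Id4, Bmp4 and Smad6. The 250 bases before the start are printed 5′ to 3′ on the gene's strand, with a GGCGCC, the core of the BMP response element, in capitals.
Id2, chr12:25096093-25096342, minus strand: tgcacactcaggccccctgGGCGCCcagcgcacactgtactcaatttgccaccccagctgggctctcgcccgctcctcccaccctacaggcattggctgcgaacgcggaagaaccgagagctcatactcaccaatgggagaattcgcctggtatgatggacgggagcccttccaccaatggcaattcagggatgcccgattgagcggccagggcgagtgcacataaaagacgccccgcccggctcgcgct
Id3, chr4:136143572-136143821, plus strand: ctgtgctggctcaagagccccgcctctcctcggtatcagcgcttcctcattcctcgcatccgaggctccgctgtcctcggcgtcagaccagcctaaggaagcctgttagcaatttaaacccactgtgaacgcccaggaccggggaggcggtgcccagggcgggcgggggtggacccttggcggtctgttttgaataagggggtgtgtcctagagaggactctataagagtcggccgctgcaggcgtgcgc

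GGCGCC, which reads the same on both strands, occurred once in the windows of Id2 (first base at -231) and Id4 (first base at -148), and not in those of Id3, Bmp4 and Smad6. Of all 32851 windows of 300 bases, 11.9% held it. GGCGCC is made of G and C only, and the 5 genes' promoters are rich in both. Their 250 bases before the start held 62.8% to 75.6% G and C, against a median of 52.4% over all promoters. The E-box CANNTG, the site of E proteins and their partners, was in the windows of Id2, Bmp4 and Smad6, and in 72.3% of all windows. The palindrome TGACGTCA, the cyclic AMP response element, was in none of the 5 and in 1.79% of all. A match is a description of letters in this window, and enhancers farther away were not searched.

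Smad6, the inhibitory Smad that acts mainly on the BMP branch, was below 0 on all 6 arrays. It had -0.48, -0.38 and -0.29 in pairs 1, 2 and 3 with the mutant in Cy5, and -0.27, -0.26 and -0.40 with the mutant in Cy3. The pair means, -0.37, -0.32 and -0.35, were closer to each other than the 2 arrays of any pair, which differed by 0.11 to 0.21. The SE takes no account of that difference between arrays. The mean was -0.35 ± 0.04 (SE, n = 3; interval -0.46 to -0.24), 21.4% less transcript in the mutant antrum. By p-value Smad6 ranked 37 of the 30649 features, with a limma adjusted p of 0.891.

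The window of Smad6 held 1 palindromic Smad binding element, GTCTAGAC, across the annotated start (bases -4 to 4), which 0.213% of all windows held. The windows of Id2, Id3, Id4 and Bmp4 held none. The element of Smad6 is shown in capitals with its surroundings, since Smad6 is a target of the pathway it blocks.
Smad6, chr9:64022045-64022074, minus strand: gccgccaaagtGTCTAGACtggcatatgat

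Bmp4, the mesenchymal ligand, had the lowest mean of the 7 and one of the widest spreads. It had -1.23, -0.18 and -0.52 in pairs 1, 2 and 3 with the mutant in Cy5, and -0.83, 0.03 and -0.59 with the mutant in Cy3. Pairs 1 and 3 were below 0 on both arrays, and pair 2 was near 0. The mean was -0.55 ± 0.20 (SE, n = 3; interval -1.13 to 0.02; adjusted p 0.923). It was -0.32 without pair 1 and -0.79 without pair 2.

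The order of the pairs for Bmp4 was shared by the smooth muscle, fibroblast, endothelial, interstitial cell and liver markers, so it points to no single tissue. The epithelial, leukocyte, enteric neuron, pancreatic and red blood cell lists had other orders. Interstitial cell markers had medians of 0.20, 1.89 and 0.86 in pairs 1, 2 and 3, and the liver genes 0.06, 2.89 and 2.37. The 10 smooth muscle genes, all measured and all with means between -0.64 and 0.00, had medians of -0.94, 0.29 and -0.65 in pairs 1, 2 and 3, and the 8 fibroblast genes -0.37, 0.06 and -0.13. Levels of these markers cannot be read from ratios, and their part in the Bmp4 value was not tested. Bmp2, a ligand made by epithelium and by macrophages of the muscle layer, had pair means of 0.16, -0.06 and -0.28 and differed in sign between pairs. Its mean was -0.06 ± 0.10 (SE, n = 3; interval -0.34 to 0.22), and 19.4% of features had a lower ratio, whereas 0.375% had a lower ratio than Bmp4.

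**Figure D2:**
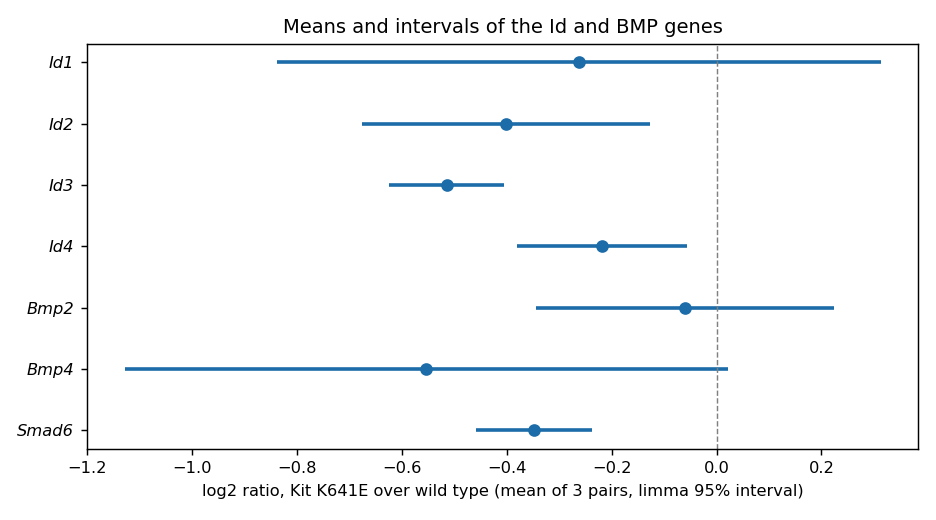
The mean log2 ratio of Kit K641E over wild type (horizontal axis, n = 3 pairs) is shown for 7 genes with limma's 95% interval, which is not adjusted for multiple tests. The intervals of Id2, Id3, Id4 and Smad6 lie below 0, and those of Id1, Bmp2 and Bmp4 include it.

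At an unadjusted threshold of 0.05, 4 of the 7 genes were lower (Id2, Id3, Id4 and Smad6) and 0 higher. Among all features 2.16% were lower and 2.74% higher at that threshold. Below 0 on all 6 arrays were 3 of the 7, Id2, Id3 and Smad6, against 3.45% of all features. These counts describe a short list that was chosen with results of these arrays known, and no gene in it passed after adjustment. The order of the means from lowest to highest was Bmp4, Id3, Id2, Smad6, Id1, Id4 and Bmp2, and the wide intervals of Bmp4 and Id1 overlap those of all the others.

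Id3 and Smad6, picked here because their pair means were alike, can be set beside other values of the same pairs. In pair 1 the medians of the interstitial cell and liver markers were 0.20 and 0.06, and Id3 and Smad6 had -0.49 and -0.37. In pair 2 those medians were 1.89 and 2.89, and Id3 and Smad6 had -0.54 and -0.32. In pair 3, where Eif2s3y had -5.06, Id3 and Smad6 had -0.51 and -0.35. The part of these pair differences in the Id3 and Smad6 values was not tested.

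Both genes are also expressed in endothelium. The 9 endothelial markers, all measured, with 8 below 0, had medians of -0.54, 0.00 and -0.01 in pairs 1, 2 and 3. Individual endothelial genes ran from -0.38 for the junction gene Esam to 0.05 for the cadherin gene Cdh5. The receptor gene Tie1 had -0.20, -0.21 and -0.16 in the 3 pairs, and Esam -0.54, -0.14 and -0.45. These were the only 2 of the 9 below 0 on all 6 arrays. Of the 9, only Cdh5 (-0.12, 0.14 and 0.14) and Cldn5 (-0.60, 0.07 and 0.16) were above 0 in both pair 2 and pair 3. In pairs 2 and 3, Id3 had -0.54 and -0.51 and Smad6 -0.32 and -0.35. The part of endothelial content in these values was not tested.

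**Figure D3:**
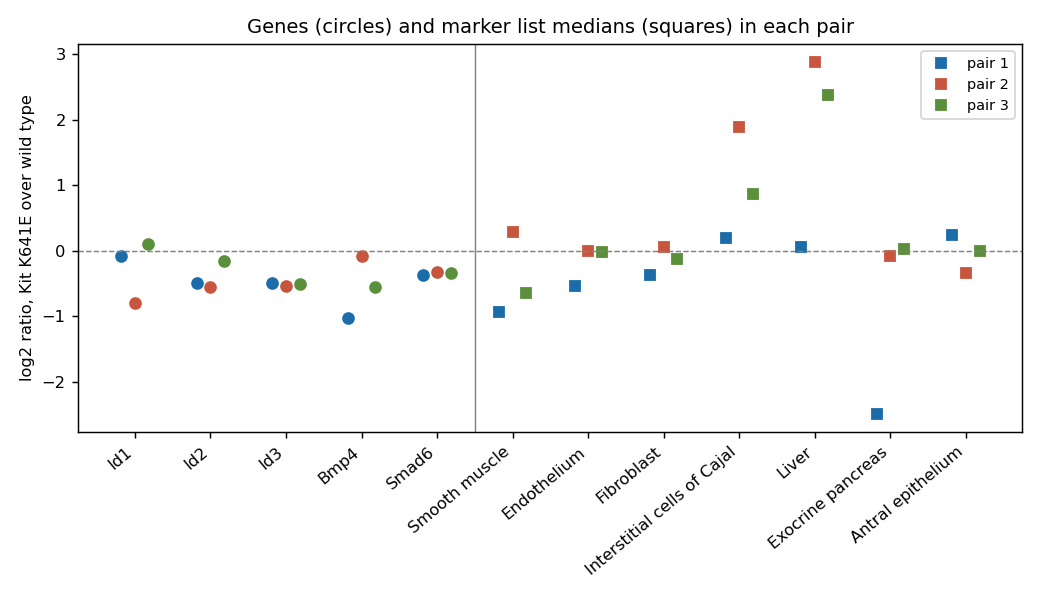
Pair means of the log2 ratio of Kit K641E over wild type (vertical axis) are shown for 5 of the genes (circles, left) and as medians over marker lists (squares, right), coloured by pair. Id3 and Smad6 stay between -0.54 and -0.32 in every pair, while the liver median runs from 0.06 to 2.89 and the smooth muscle median from -0.94 to 0.29.

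The rest of the pathway was spread around 0. Of 93 listed genes of BMP, TGF-beta and helix-loop-helix factors, 85 were measured, 40 above and 45 below 0, with a median of -0.01. Their means ran from -0.48 to 1.04. None passed after adjustment. At the unadjusted threshold, 6 were lower and 1 higher, against 2.16% and 2.74% of all features, and 10 were below and 1 above 0 on all 6 arrays, against 3.45% and 3.87% of all features.

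Among the 12 other BMP ligands the median was 0.00 and the values lay between -0.17 and 0.10. Gdf5, a ligand of joint and cartilage formation, had -0.16 ± 0.04 (SE, n = 3), and its 2 probes gave -0.17 and -0.15. Bmp5 had -0.17 ± 0.09 and Bmp3, an antagonistic family member, -0.17 ± 0.09. The 11 receptors and co-receptors had a median of -0.07, with 8 below 0 and 3 above 0. The highest means were 0.40 ± 0.32 for Eng and 0.27 ± 0.21 for Acvrl1. Eng had -0.40, 1.09 and 0.50 in pairs 1, 2 and 3, and Acvrl1 -0.27, 0.73 and 0.35. Rgma, a BMP co-receptor, was below 0 on all 6 arrays, with pair means of -0.23, -0.17 and -0.48 and a mean of -0.29 ± 0.08. Bmpr1b, a type I receptor, had -0.10 ± 0.04 and Acvr2b, a type II receptor, -0.14 ± 0.07, both below 0 on all 6 arrays. For Bmpr1b this holds for the mean of its 3 probes (-0.12, -0.05 and -0.12), not for each probe. Acvr2b was barely below 0 on some arrays, such as -0.002 in pair 1 (mutant in Cy5) and -0.001 in pair 2 (mutant in Cy3).

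The Smads that carry the signal lay around 0. Smad1 had -0.01 ± 0.04 and the common partner Smad4 0.01 ± 0.04, with pair means of 0.03, 0.02 and -0.01 for Smad4. Smad9 had -0.15 ± 0.06, and Smad5 differed between pairs, with -0.21, 0.71 and 0.39. Among 16 antagonists the median was -0.01. Grem1, the gremlin antagonist made by gut muscle, was below 0 on all 6 arrays, with -0.10 ± 0.04, and Dand5, another antagonist of the family, had -0.08 ± 0.04. Chrd, which encodes chordin and traps BMP ligands, had the highest mean of the antagonists, 0.83 ± 0.33, with 0.01, 1.58 and 0.88 in pairs 1, 2 and 3. Kit had -0.02, 1.89 and 0.81 in the same pairs, and the median of the liver genes was 0.06, 2.89 and 2.37. A link of Chrd with either was not tested.

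Among 8 other BMP targets measured, 6 were below 0, with a median of -0.09, and 2 were below 0 on all 6 arrays. Atoh8, a helix-loop-helix factor induced by BMPs in endothelium and liver, had -0.31, -0.28 and -0.16 in pairs 1, 2 and 3, and a mean of -0.25 ± 0.05. Gata6, a factor of gut epithelium and smooth muscle, had -0.12, -0.28 and -0.21, and a mean of -0.21 ± 0.05. Hey1, a Notch and BMP target, had -0.23 ± 0.11, and Hamp, the hepatic target that encodes hepcidin, 0.06 ± 0.10. No target passed after adjustment (limma adjusted p 0.923 for Atoh8, Gata6 and Hey1).

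Among Smad regulators, Pmepa1, which dampens TGF-beta signalling, had 0.40 ± 0.20, with -0.13, 0.54 and 0.79 in the pairs. The repressor gene Skil had -0.14 ± 0.08 and the phosphatase gene Ppm1a -0.08 ± 0.06. The median of the 8 regulators was 0.00.

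The transcripts of the E proteins, which Id proteins bind, had ratios on both sides of 0. Tcf3, which encodes the E proteins E12 and E47, had 0.10 ± 0.06, Tcf4 0.19 ± 0.17 and Tcf12 -0.03 ± 0.07. Of 11 helix-loop-helix factors of the gut, 5 were above and 6 below 0, with a median of -0.01. Ptf1a, the pancreatic factor, had -0.17 ± 0.05 and was below 0 on all 6 arrays. Twist1 and Twist2, factors of the mesenchyme, had 0.16 ± 0.08 and -0.16 ± 0.08.

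The neighbouring TGF-beta and activin genes had a median of 0.05 over 12 measured, with 8 above 0. Tgfbr3, which encodes the co-receptor betaglycan, was lower on all 6 arrays, with pair means of -0.56, -0.30 and -0.58 and a mean of -0.48 ± 0.08. Its 2 probes gave -0.41 and -0.55. Tgfb1 had 0.39 ± 0.13, with 0.08, 0.43 and 0.67 in the pairs, and the inhibin gene Inha 0.08 ± 0.04. The limma adjusted p was 0.923 for each of Tgfbi, Tgfbr3, Tgfb1 and Inha.

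**Figure D4:**
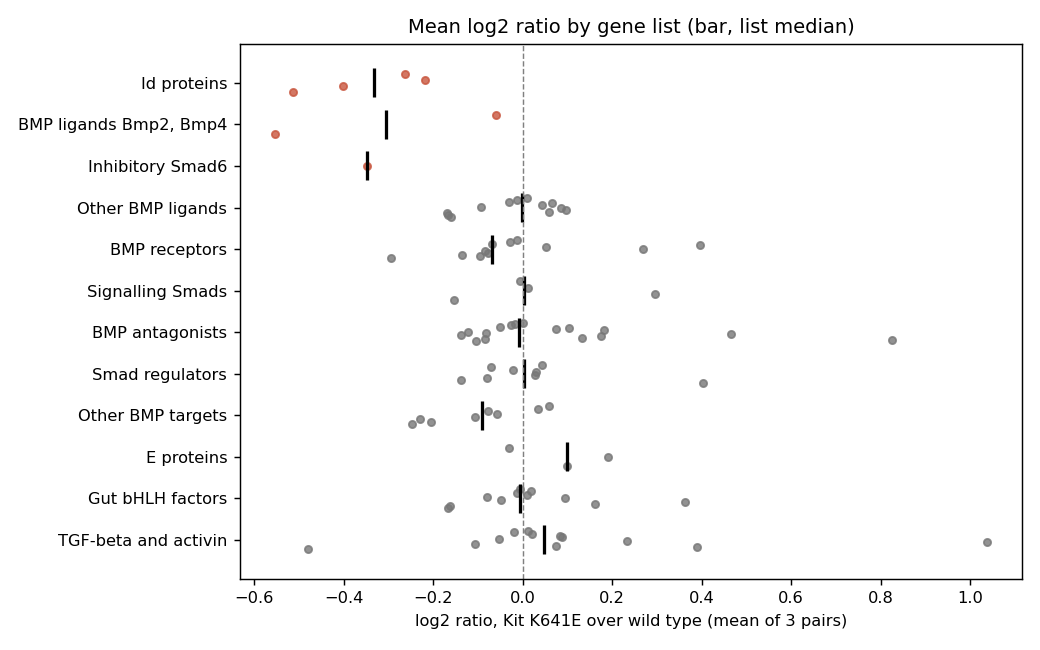
Each point is the mean log2 ratio of Kit K641E over wild type (horizontal axis, n = 3 pairs) of 1 gene, with the Id and BMP genes of the opening in orange, other pathway genes in grey and a bar at each list's median. The Id proteins lie at a median of -0.33, while the medians of the grey lists run from -0.09 to 0.10.

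Genes with the pattern most like that of Bmp4, the gene with the widest range over pairs, were taken by the smallest root mean squared difference over the 6 arrays among all named genes. They were Aoc3 (0.09), an amine oxidase of smooth muscle and fat cells, Tap1 (0.12), a peptide transporter of antigen presentation, Asb2 (0.13), a ubiquitin ligase subunit of muscle and blood cells, Zfp647 (0.14) and Lama2 (0.16), a laminin chain of muscle basement membrane. Aoc3 had -0.997, -0.16 and -0.51 in pairs 1, 2 and 3, against which Bmp4 had -1.03, -0.08 and -0.55. The same measure for Id3, added after its values were seen, gave Srd5a3 (0.08), a steroid reductase family gene, Ramp1 (0.13), a receptor partner for calcitonin gene-related peptide, Dcn (0.13), the proteoglycan decorin, Klf2 (0.14), a flow-responsive endothelial factor, and Lmod1 (0.16), a leiomodin of smooth muscle that promotes actin assembly. Their means ran from -0.53 for Srd5a3 to -0.40 for Klf2 and Lmod1. These 6 arrays come from 3 pairs, so likeness over them is a description.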

How the data were processed

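The authors deposited 1 table of log2 ratios of the 2 channels for 38467 probes of 70 bases on 6 arrays. RNA was amplified as aminoallyl antisense RNA and labelled with Cy5 or Cy3, per the labels' protocols. Not given in the sources used here were the scanner, background correction, normalization, log base and direction. Base 2 was taken because values reach 5.831, above the 4.8165 of a log10 ratio on a 16-bit scanner, although a natural logarithm would also allow it. Array medians between -0.003 and 0.004 show centring. Arrays of a pair correlated at -0.61, -0.74 and -0.83, so arrays with the mutant in Cy3 were turned.

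Probes were named by the platform annotation (22941 of 38467) and averaged per gene, giving 30649 features with unnamed probes. For each feature the 3 pair means entered a two-sided limma fit (version 3.58.1 in R 4.3.3; lmFit, eBayes) with 0 as the null value, and p-values were adjusted by Benjamini-Hochberg over all features. The test was checked on simulated data. Named genes are the members, the 3 of each pathway list with the lowest p, and the 5 most like the member with the widest range. Smad1, Eng, Acvrl1, Tgfbi, Eif2s3y, Hamp and the marker genes were named after their values were seen. Members and lists were chosen with earlier results of these data known. The number of arrays limits the precision.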

Additional observations from a re-analysis of the deposited data

Results flagged for a closer look

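Of 61 results examined for 1 array far from the other 5 (the members, the named pathway genes, Kit, Spry4, Tpbg and the list medians), 0 had one.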

How the results depend on the processing

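Over 14 alternatives each, Bmp4, Id2, Id4, Id3 and Smad6 kept a value below 0. Several alternatives could not move the mean of a gene with 1 probe, so there the sign was fixed. These were the arrays as independent, the random block, single probes, the median over probes, named genes only and a robust fit. Id3 ran from -0.53 to -0.50 and Smad6 from -0.38 to -0.31. Bmp2 turned to 0.05 without pair 3 (-0.17 without pair 1) and Id1 to 0.00725 without pair 2 (-0.44 without pair 3). Id3 (-0.51) passed with the 6 arrays as independent (adjusted p 0.00138), in which 2 arrays of the same RNA count as separate samples, and with the pair as a random block and a dye term (0.0294). The random block fit also takes its degrees of freedom from the 6 arrays. Smad6 (-0.35) passed with the arrays as independent (0.0233). In no alternative did Id1, Id2, Id4, Bmp2 or Bmp4 pass.

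The number of features called higher was 2. It was 67 with the arrays as independent, 10 with the random block, 1 with the mutant in Cy3 only or quantile normalization, and 0 with the mutant in Cy5 only, with arrays scaled to a common spread, with each probe on its own and without any 1 pair (range 0 to 0). The number called lower was 0, but 41 with the arrays as independent and 5 with the random block. Signal over background is not known from ratios, so genes near the detection limit cannot be marked.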
